A study of Mus musculus with 18 samples.

Results

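The 10 heat shock chaperone genes described here were Hspa1a, Hspa1b, Hspa8, Hsph1, Hsp90aa1, Hspb1, Hspd1, Hspe1, Dnajb1 and Bag3. They were taken by gene symbol from the 53465 genes of the deposited table, and all 10 were found. RNA was measured by SMART-seq2, a full-length cDNA protocol for few cells, in 18 libraries from 9 C57BL/6J mice. The female mice were between 8 and 10 weeks old, all of them received a spinal cord contusion, and no library came from an uninjured cord. At 48 h after the injury, 3 mice were injected into the cord with PBS, 3 with recombinant IL-13 (rIL-13) and 3 with recombinant IL-4 (rIL-4), and cells were collected 24 h later. From each cord, microglia (the resident myeloid cells) and macrophages (infiltrated from blood) were sorted as CD11b+ F4/80+ cells with low and high CD45, so that every mouse gave a library of each cell type.

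Heat shock chaperones bind unfolded proteins and help them to fold, to cross membranes or to be degraded. HSP70 proteins take up clients with the help of J-domain proteins and release them through nucleotide exchange factors, HSP90 acts later on signalling proteins, small heat shock proteins hold clients without using ATP, and HSP60 with HSP10 folds proteins within mitochondria. Many of these genes are induced by the transcription factor HSF1, which binds heat shock elements made of inverted repeats of GAA. In myeloid cells, chaperones are known for their part in stress tolerance and in the folding of newly made proteins.

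Libraries held between 35961305 and 45849829 counts, with a median of 39570356. All 10 listed microglia markers were higher in the microglia than in the macrophages of PBS mice. Markers of other cells were also present in the microglia libraries, where 10 fibroblast and pericyte markers summed to between 225 and 9725 CPM (counts scaled to the library total), against between 0.262 and 8.47 in the macrophages. Mitochondrially encoded genes held between 6.35% and 12.2% of the counts in rIL-4 microglia and between 2.18% and 3.53% in the other microglia.

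Sequences are shown first for the members whose reads or control regions bear on the values below. Hspa1a (ENSMUSG00000091971.3, chromosome 17 from 34969190 to 34972156, minus strand, GRCm38) and Hspa1b (ENSMUSG00000090877.3, chromosome 17 from 34956436 to 34959238, minus strand) encode the inducible HSP70 and start 12918 bases apart. Their coding sequences were identical at 1916 of 1926 aligned positions (99.5%), whereas the transcripts after the coding sequence were 51.6% identical. Their upstream regions were as similar. The 250 bases before each start, at chr17:34972157-34972406 and chr17:34959239-34959488 on the minus strand, differed at the 3 positions set in capitals (RefSeq, GRCm38.p6):
Hspa1a: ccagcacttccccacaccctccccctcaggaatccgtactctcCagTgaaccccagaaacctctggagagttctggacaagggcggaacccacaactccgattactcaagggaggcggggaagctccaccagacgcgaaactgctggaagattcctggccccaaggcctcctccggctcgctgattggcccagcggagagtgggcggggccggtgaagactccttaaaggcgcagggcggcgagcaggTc
Hspa1b: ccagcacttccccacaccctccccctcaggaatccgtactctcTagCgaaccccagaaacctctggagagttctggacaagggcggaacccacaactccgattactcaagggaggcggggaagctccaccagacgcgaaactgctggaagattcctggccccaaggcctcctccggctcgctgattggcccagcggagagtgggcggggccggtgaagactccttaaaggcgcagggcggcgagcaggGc

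RefSeq promoter entries, which run from 250 bases before to 50 bases after a start, were matched for 8 of the 10 members. Hspa8 and Hsp90aa1 had no entry. The heat shock element was searched on both strands as 3 inverted units, GAANNTTCNNGAA or its complement TTCNNGAANNTTC, and as 2 units, GAANNTTC, which the longer motif contains. Of the 27025 genes in the table, 0.662% held the longer motif in a promoter, as did 3 of the 8 members, Hspd1, Hspe1 and Hsph1. The shorter one was held by 9.04% of genes and by 7 of the 8 members, all but Dnajb1. The other arrangement of 2 units, TTCNNGAA, which the longer motif also contains, was held by 9.60% of genes and by 3 of the 8 members, the same 3 that held the longer motif. A match is a string of letters and not a measured binding site. Hspd1 (chromosome 1 from 55077835 to 55088243, minus strand) and Hspe1 (chromosome 1 from 55088132 to 55091307, plus strand) encode the mitochondrial chaperonin HSP60 and its partner HSP10. They run in opposite directions, and their annotated genes overlap by 112 bases. The matches began 144 and 139 bases before one of the RefSeq starts of Hspd1 and 89 and 84 bases before that of Hspe1. The RefSeq entry at the annotated start of Hspd1 held no such match. Both overlapping matches are set in capitals within chr1:55087999-55088136 (plus strand):
Hspd1-Hspe1: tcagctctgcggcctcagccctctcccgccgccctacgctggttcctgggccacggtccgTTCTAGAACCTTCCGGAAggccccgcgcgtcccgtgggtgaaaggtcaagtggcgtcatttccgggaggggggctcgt

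The match in Hsph1 (chromosome 5 from 149614287 to 149636376, minus strand), which encodes the HSP110 nucleotide exchange factor, began 36 bases after one of its RefSeq starts and 15 bases after the other, at chr5:149636287-149636315. In Hspb1 (chromosome 5 from 135887919 to 135889563, plus strand), which encodes the small heat shock protein HSP25, matches of 2 units began 117 and 97 bases before the start, within chr5:135887772-135887859. Both stretches are shown because these genes carried the calls described below, with the matches in capitals:
Hsph1: gtaaaatgctgcagaTTCTGGAAAGTTCt
Hspb1: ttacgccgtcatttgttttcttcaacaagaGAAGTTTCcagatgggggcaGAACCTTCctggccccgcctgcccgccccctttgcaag

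Together, the members held between 0.282% and 0.50% of all counts of a library. Hspa8 (chromosome 9 from 40800984 to 40810087, plus strand), the constitutive HSP70 of the cytosol, held between 65.8% and 78.0% of these counts. Levels of different genes were compared as normalized counts (counts divided by size factors over the 18 libraries) per kb of exon. Hspa8 was the highest member in both cell types, with a mean of 22522 per kb in microglia and 25532 per kb in macrophages, and its range did not overlap that of any other member. Hsp90aa1 (chromosome 12 from 110690605 to 110702728, minus strand), the stress-responsive HSP90 of the cytosol, followed with 4649 and 4195 per kb, then Hspd1 with 2718 and 2491 and Hspe1 with 2180.4 and 2130.3. In microglia, the ranges of Hsp90aa1 and Hspd1, of Hspd1 and Hspe1 and of Hspe1 and Hspb1 overlapped, so that these neighbours were not separated. In macrophages, the ranges of Hspd1 and Hspe1 overlapped as well.

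Among the lower members, Bag3 (chromosome 7 from 128523616 to 128546981, plus strand), a nucleotide exchange factor that takes HSP70 clients to autophagy, had 584 per kb in microglia and 719 in macrophages. Dnajb1 (chromosome 8 from 83608193 to 83612653, plus strand), a J-domain partner of HSP70, had 489 and 510.0 per kb, and Hsph1 had 285 and 451. Hspa1a had 200.2 per kb in microglia and 217 in macrophages, in a range that overlapped that of Hsph1 in both cell types. The ranges of Bag3 and Dnajb1 and of Dnajb1 and Hsph1 also overlapped in both. Hspb1 was the only member whose place in the order moved by several ranks, from rank 5 in microglia (1699 per kb) to rank 9 in macrophages (46.1 per kb). Hspa1b was last, with 4.65 and 3.21 per kb.

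**Figure D1:**
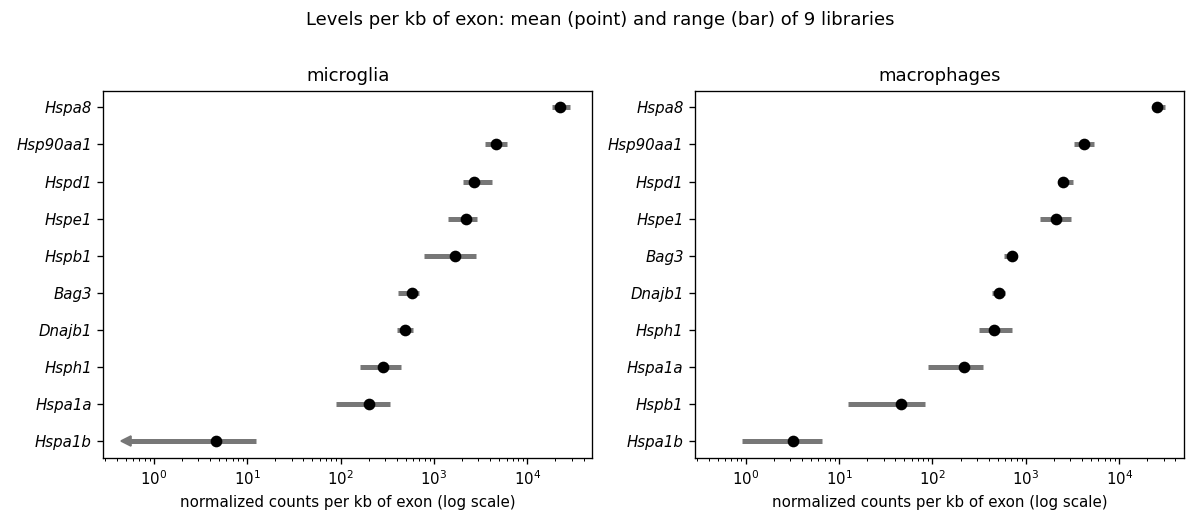
Normalized counts per kb of exon (log scale) of the 10 genes in microglia and macrophages; points are the mean and bars the range of 9 libraries, and the arrow marks a library with 0 counts. Hspa8 lies above every other gene, and Hspb1 has rank 5 in microglia (1699) and rank 9 in macrophages (46.1).

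Hspa1b was barely detected. It had 209 counts in the 18 libraries together, against 11401 for Hspa1a, which is 1.80% of the pair, and its share was between 0% and 4.99% in single libraries. The rIL-13 microglia of mouse 5 had 0 counts, which allows up to 0.0769 CPM by counting error alone. Since RSEM divides reads that match both genes, the split between them is uncertain, and fits were repeated with both summed as 1 row. Hspa1a also overlaps the antisense gene Gm20481 by 2225 bases, and SMART-seq2 keeps no strand. Gm20481 had 0 counts in every library.

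Comparison of the cytokines with PBS in macrophages asked whether they changed chaperone expression in infiltrated cells. The gene that changed was Hsph1. Its normalized counts were 2691, 2297 and 2337 in PBS macrophages, 2833, 2509 and 3059.7 in rIL-13 macrophages, and 4366, 5229.8 and 4199 in rIL-4 macrophages. All 3 rIL-4 libraries were thus above all 6 others. Hsph1 was higher with rIL-4 than with PBS by a log2 fold change of 0.97 (standard error, SE, 0.14, adjusted p = 0.00148, edgeR), a fold of 1.95. It was called in all 9 fits that left out 1 library, with adjusted p between 0.000991 and 0.0135.

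Hsph1 was the single member called in that comparison, 1 of the 9 tested, where edgeR called 14% of all genes tested. Hspa1b was not tested in the macrophage fits because it did not pass the filter on low counts. With rIL-13, 0 of 9 members were called against PBS (4.19% of all genes), 1 had an unadjusted p under 0.05, and DESeq2 called 0 (8.56% of all genes). Hsph1 had a log2 fold change of 0.23 (SE 0.14, adjusted p = 0.431, edgeR) there. After the TMM scaling of that fit, groups did not overlap for 1 of 9 members, Hspd1 (24.7% of all genes). On the normalized counts they did not overlap for Hspa8 either, with 101107, 105042 and 105666 in rIL-13 macrophages, all below 108854, 112916 and 108085 with PBS (log2 fold change -0.05, SE 0.15, adjusted p = 0.907, edgeR). Between rIL-4 and rIL-13, 0 of 9 were called by edgeR (0.25% of all genes), 1 had an unadjusted p under 0.05, and DESeq2 called 1 (3.09% of all genes), in each case Hsph1, which was also the 1 member without overlap (14.1% of all genes). Its log2 fold change was 0.74 (SE 0.14), with an adjusted p of 0.0584 by edgeR, 0.000381 by DESeq2 and 0.0277 by edgeR without the filter on low counts. Leaving out 1 library gave adjusted p between 0.0873 and 0.203, and all 18 libraries in 1 model gave 0.507. Cell type markers moved with rIL-4 in these libraries as well. The 10 microglia markers were all lower than with PBS (summed level between 451 and 847 CPM against between 2647 and 4104), whereas of 10 monocyte-derived macrophage markers 1 was higher, 1 was lower, and the median log2 fold change was -0.10. The sum of the latter list was nevertheless between 91309 and 109308 CPM against between 21867 and 24104, with Chil3 as its most abundant gene with rIL-4 and Lyz2 with PBS. Of 8 endothelial markers 2 were higher and 4 were lower with rIL-4, with sums between 198 and 389 CPM against between 43.2 and 51.6, and of 6 astrocyte markers 1 was higher and 1 was lower, with sums of 63.8, 462 and 154 CPM in mice 8, 9 and 10 against between 20.7 and 27.3. Mouse 9 had both the largest astrocyte sum and the most Hsph1. Immediate early genes summed to between 3527 and 4416 CPM against between 5041 and 5677, neutrophil markers to between 164 and 678 against between 709.7 and 1258 (2 of 8 were lower), and fibroblast and pericyte markers to at most 1.28 CPM against at least 4.81. The mitochondrial share was between 0.836% and 1.41% with rIL-4 and between 0.532% and 0.745% with PBS. The part of these measures in the result for Hsph1 was not tested.

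The mitochondrial chaperonin pair and Dnajb1 had smaller differences in macrophages. Hspd1 had 5996, 5986 and 5890.1 normalized counts with PBS, 6444, 7126 and 6101 with rIL-13, and 6689.9, 8454 and 6535 with rIL-4. Both cytokine groups lay above PBS without overlap, as did rIL-4 for Dnajb1 (between 1643 and 1918 against between 1375 and 1629). The log2 fold change with rIL-4 was 0.33 for Hspd1 (SE 0.13, adjusted p = 0.129, edgeR) and 0.30 for Dnajb1 (SE 0.14, adjusted p = 0.197, edgeR), so that neither passed the threshold. Groups did not overlap for 3 of the 9 members in rIL-4 against PBS, where 34.7% of all genes did not. Hspe1 differed by 0.09 (SE 0.26), Bag3 by 0.19 (SE 0.14), Hspa8 by 0.12 (SE 0.15) and Hsp90aa1 by -0.11 (SE 0.21) on the log2 scale, with overlapping libraries. Hspb1 was low in macrophages and differed by -0.83 with an SE of 0.62 (adjusted p = 0.438, edgeR). With rIL-13 against PBS, the remaining members other than Hspa1a, which is given below, ranged from -0.75 (Hspb1, SE 0.63) to 0.38 (Hspe1, SE 0.26). For rIL-4 against rIL-13, the members other than Hsph1 ranged from -0.30 (Hspe1, SE 0.26) to 0.61 (Hspa1a, SE 0.34).

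Hspa1a was low in some rIL-13 macrophages. It had 1034, 639 and 736 normalized counts with PBS, 265, 748 and 338 with rIL-13, and 695, 741 and 597 with rIL-4. The rIL-13 macrophages of mouse 6 were within the PBS range, and the 2 other libraries were below every PBS and rIL-4 library. The same library stood apart in the sum of immediate early genes, with 5123 CPM against 2436 and 3461 in mice 5 and 7, in that of neutrophil markers, with 2534 CPM against 390.03 and 375, and in that of astrocyte markers, with 349 CPM against 53.1 and 103. Their part in the level of Hspa1a was not tested. Against PBS, rIL-13 gave a log2 fold change of -0.81 (SE 0.34, adjusted p = 0.243, edgeR), which was -1.37 without mouse 6 (adjusted p = 0.0114, edgeR), and rIL-4 gave -0.19 (SE 0.34, adjusted p = 0.767, edgeR).

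**Figure D2:**
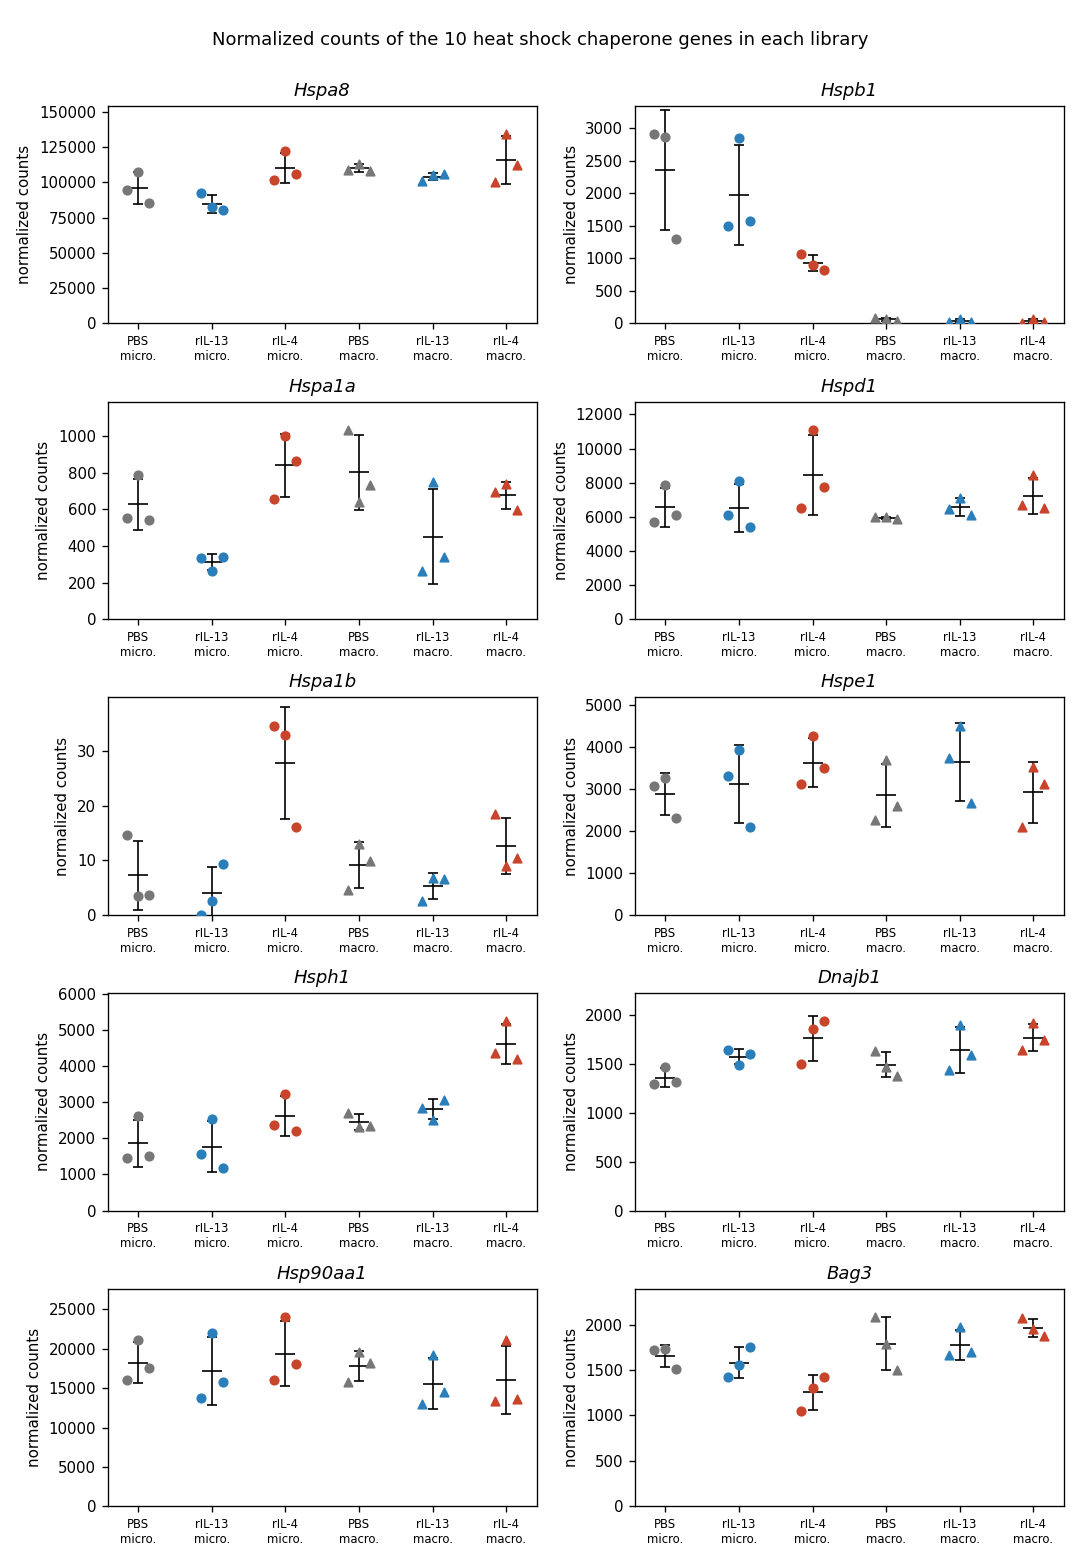
Normalized counts of each gene (vertical axis, linear from 0) in the 18 libraries of 6 groups; circles are microglia, triangles are macrophages, and black bars give the mean ± SD of 3 mice. Hsph1 was higher in all 3 rIL-4 macrophage libraries than in the 6 other macrophage libraries, and Hspb1 was higher in all 9 microglia libraries than in all macrophages.

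In microglia, edgeR called 0 of 10 members for rIL-4 against PBS (2.22% of all genes), 0 of 10 for rIL-13 against PBS (0.366%) and 0 of 10 for rIL-4 against rIL-13 (0.0385%). An unadjusted p under 0.05 was found for 2, 1 and 3 members, respectively, and DESeq2 called 1, 0 and 1 (7.91%, 2.19% and 3.93% of all genes). The gene with most separation between the cytokines was Hspa1a. Its normalized counts were 554, 788 and 543 in PBS microglia, 334, 263 and 339.5 in rIL-13 microglia, and 659, 1000.3 and 864 in rIL-4 microglia. The rIL-13 libraries lay below all others, while PBS and rIL-4 overlapped. Immediate early genes summed to between 928 and 1126 CPM in rIL-13 microglia, against between 1542 and 1821 with PBS and between 826 and 1272 with rIL-4. Of these 17 genes, 14 had a log2 fold change below 0 with rIL-13 against PBS, 11 of the 17 had an unadjusted p under 0.05, edgeR called 0 and DESeq2 called 3, and their part in the level of Hspa1a was not tested. The log2 fold change of rIL-4 against rIL-13 was 1.45 (SE 0.29), with an adjusted p of 0.139 by edgeR and 0.000338 by DESeq2. With Hspa1a and Hspa1b summed it was 1.48 (adjusted p = 0.125, edgeR), and with all 18 libraries in 1 model 1.44 (adjusted p = 0.0534, edgeR). Leaving out 1 library gave between 1.32 and 1.60 (adjusted p between 0.127 and 0.323, edgeR).

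Against PBS, Hspa1a had a log2 fold change of -1.0 in rIL-13 microglia (SE 0.28, adjusted p = 0.333, edgeR; 0.0647, DESeq2) and of 0.46 in rIL-4 microglia (SE 0.28, adjusted p = 0.495, edgeR). Hspa1b had 15, 4 and 4 raw counts in PBS microglia, 0, 3 and 12 in rIL-13 microglia, and 35, 43 and 15 in rIL-4 microglia. These few counts gave a log2 fold change of 2.80 with an SE of 1.56 for rIL-4 against rIL-13 (adjusted p = 0.557, edgeR). Hspa8 had 101890.4, 122337 and 105966 normalized counts in rIL-4 microglia and 92060.0, 82384 and 80039.6 in rIL-13 microglia. These groups did not overlap, and the log2 fold change was 0.40 (SE 0.14, adjusted p = 0.361, edgeR). Groups did not overlap for 4 of 10 members between rIL-4 and rIL-13 (12.3% of all genes), Hspa1a, Hspa1b, Hspa8 and Hspb1.

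Hspb1 and Bag3 were the members with negative differences in rIL-4 microglia. Hspb1 had 2904, 2870.2 and 1289.9 normalized counts with PBS, 1495, 2852 and 1575 with rIL-13, and 1064, 902 and 814 with rIL-4. All 3 rIL-4 libraries were below the 6 others, whereas PBS and rIL-13 overlapped. The log2 fold change of rIL-4 against PBS was -1.31 (SE 0.34), with an adjusted p of 0.097 by edgeR and 0.00946 by DESeq2. Bag3 had 1723, 1731 and 1511 normalized counts with PBS and 1045, 1300.3 and 1421 with rIL-4, which did not overlap (log2 fold change -0.36, SE 0.18, adjusted p = 0.365, edgeR).

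Dnajb1 lay the other way in microglia, with 1297, 1468 and 1315 normalized counts with PBS, 1639, 1487 and 1599 with rIL-13, and 1500.2, 1855 and 1936 with rIL-4. Both cytokine groups were above PBS in every library. The log2 fold change was 0.41 with rIL-4 (SE 0.17, adjusted p = 0.263, edgeR) and 0.22 with rIL-13 (SE 0.17, adjusted p = 0.961, edgeR). For rIL-4 against PBS, groups did not overlap for 4 of 10 members (25.8% of all genes), Hspb1, Bag3, Dnajb1 and Hspa1b (the last only after scaling, since 1 library of each group had 15 counts), and for rIL-13 against PBS for 2 of 10 (15.9%), Hspa1a and Dnajb1. Hsph1 in microglia had log2 fold changes of 0.53 with rIL-4 (SE 0.32, adjusted p = 0.487, edgeR) and -0.07 with rIL-13 (SE 0.32, adjusted p = 1, edgeR). The log2 fold changes with rIL-4 were 0.24 for Hspa8 (SE 0.14), 0.12 for Hsp90aa1 (SE 0.21), 0.40 for Hspd1 (SE 0.23) and 0.37 for Hspe1 (SE 0.24), and with rIL-13 these 4 members, Hspb1 and Bag3 were between -0.25 (Hspb1, SE 0.34) and 0.12 (Hspe1, SE 0.24). Hspa1b had 1.97 with rIL-4 (SE 1.51) and -0.83 with rIL-13 (SE 1.47). For rIL-4 against rIL-13, Hspb1 had -1.05 (SE 0.34, adjusted p = 0.343, edgeR), and the 6 members not yet given were between -0.30 (Bag3, SE 0.18) and 0.60 (Hsph1, SE 0.32). The comparisons with PBS share the PBS libraries. In rIL-4 microglia, 4 of the 10 microglia markers were lower than with PBS and 0 were higher, and their summed level was between 3031 and 4558 CPM against between 7697 and 13088. Of the 10 monocyte-derived macrophage markers 1 was higher and 0 were lower with either cytokine, and they summed to between 16046 and 26320 CPM with rIL-4 and between 7467 and 11699 with rIL-13, against between 2768 and 4077 with PBS. Their most abundant gene was Chil3 with either cytokine and Lyz2 with PBS. The part of both lists in the values above, like that of the mitochondrial share, was not tested.

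**Figure D3:**
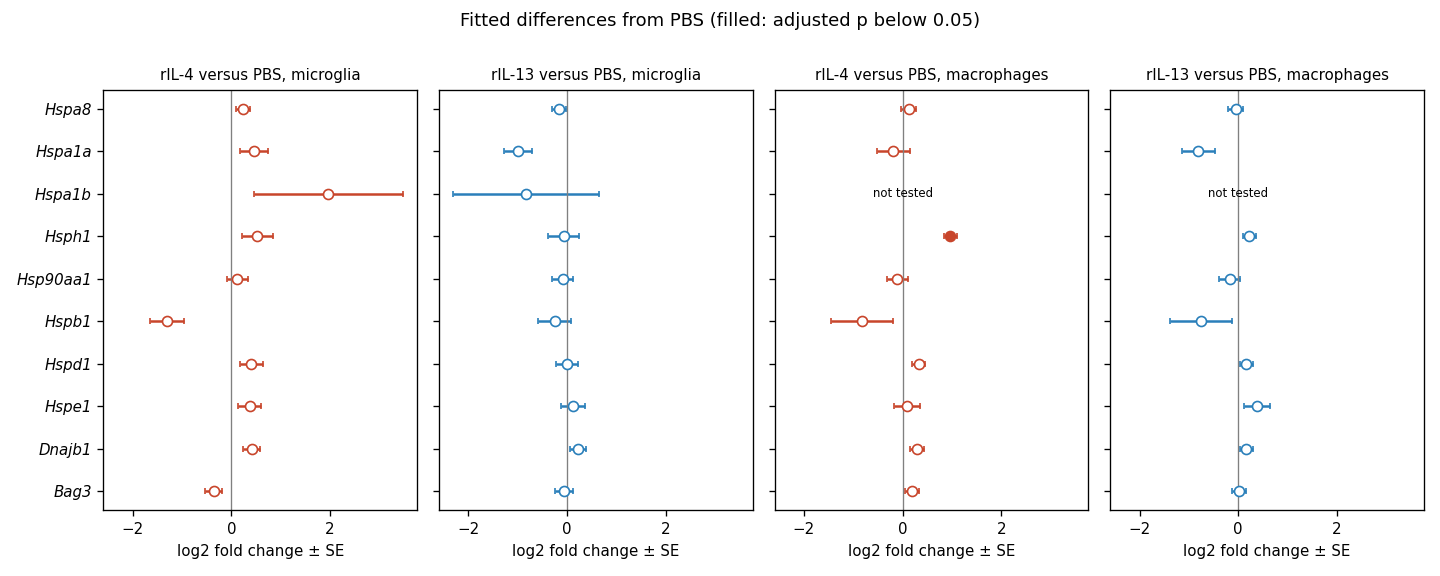
Log2 fold change ± SE (horizontal axis) of each gene for rIL-4 and rIL-13 against PBS in microglia and macrophages; filled points have an adjusted p below 0.05 by edgeR. The filled point is Hsph1 in rIL-4 macrophages (0.97), and Hspa1b was not tested in macrophages.

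Whether the response differed between the cell types was tested in a model of all 18 libraries. This model did not include the mouse as a block, so both libraries of a mouse were treated as independent. For rIL-4, 0 of 10 members were called (0.992% of all genes), 1 had an unadjusted p under 0.05, and DESeq2 called 0 (4.18% of all genes). That member was Bag3, whose response was lower in microglia by 0.57 on the log2 scale (log2 difference -0.57, SE 0.22, adjusted p = 0.28, edgeR). The response of Hsph1 to rIL-4 differed by -0.47 (SE 0.36, adjusted p = 0.705, edgeR), so that its call in macrophages was not shown to be particular to them. The responses of the 8 other members to rIL-4 differed by between -0.51 (Hspb1, SE 0.70) and 1.43 (Hspa1b, SE 1.61). For rIL-13, 0 of 10 were called (0.0242% of all genes), 0 had an unadjusted p under 0.05, and DESeq2 called 0 (0.957% of all genes). These differences lay between -0.30 (Hsph1, SE 0.36) and 0.50 (Hspb1, SE 0.70).

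Microglia and macrophages of the same treatment were compared to find members whose level depended on the cell type. Hspb1 was higher in microglia under every treatment. Macrophages had 85.8, 72.9 and 42.6 normalized counts of Hspb1 with PBS, 28.3, 65.6 and 22.8 with rIL-13, and 12.9, 66.9 and 29.5 with rIL-4, all of them below the lowest microglia library at 814. Log2 fold changes were 5.07 with PBS (SE 0.40, adjusted p = 3.15e-05, edgeR), 5.63 with rIL-13 (SE 0.51, adjusted p = 0.000485, edgeR) and 4.62 with rIL-4 (SE 0.61, adjusted p = 0.00164, edgeR). Hspb1 was called in all 3 leave-one-mouse-out fits under each treatment. Raw counts were between 14 and 76 in macrophages and between 762 and 3337 in microglia.

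With PBS, Hspb1 was the single member called of 9 tested, where edgeR called 40.9% of all genes, and with rIL-13 it was again 1 of 9 (26.7% of all genes). Groups did not overlap for 2 of 9 members with PBS, Hspb1 and Hspa8 (54.4% of all genes). Hspa8 had 94203, 107566 and 85365 normalized counts in PBS microglia, below 108854, 112916 and 108085 in the macrophages (log2 fold change -0.26, SE 0.11, adjusted p = 0.103, edgeR). With rIL-13, it had 92060.0, 82384 and 80039.6 in microglia, below 101107, 105042 and 105666 in macrophages (log2 fold change -0.32, SE 0.16, adjusted p = 0.188, edgeR). After TMM scaling, groups did not overlap for 3 of 9 members with rIL-13, Hspb1, Hspa8 and Hsph1 (45% of all genes), of which Hsph1 overlapped on the normalized counts. With rIL-4, 3 of 10 were called (23.4% of all genes), Hspb1, Hsph1 and Bag3, the last 2 of them lower in microglia (9.97% of all genes were called lower). These 3 were also the members without overlap (41.2% of all genes). With the mouse as a block, edgeR called 1 of 9, 2 of 10 and 1 of 9 members with PBS, rIL-4 and rIL-13, and 40.2%, 20.6% and 25.4% of all genes. Hsph1 had 2370.0, 3232 and 2203 normalized counts in rIL-4 microglia against 4366, 5229.8 and 4199 in the macrophages of these mice, without overlap (log2 fold change -0.86, SE 0.19, adjusted p = 0.0144, edgeR). Leaving out 1 mouse kept the log2 fold change between -0.91 and -0.80, while the adjusted p was 0.101 without mouse 8 and 0.107 without mouse 10 by edgeR. Bag3 had 1045, 1300.3 and 1421 in rIL-4 microglia against 2070.4, 1948 and 1872 in macrophages (log2 fold change -0.68, SE 0.18, adjusted p = 0.0304, edgeR). The log2 fold change of Bag3 was -0.70 with the mouse as a block (adjusted p = 0.0545, edgeR), -0.59 when 10 counts were required of each library (adjusted p = 0.0609) and between -0.82 and -0.50 without 1 mouse (adjusted p between 0.107 and 0.174), so that the direction was kept and the call was not.

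Under the other treatments, the size of the difference of Hsph1 between the cell types moved more with single mice. With PBS, it had 1458, 2611 and 1499 normalized counts in microglia and 2691, 2297 and 2337 in macrophages, and only mouse 2 had more in microglia. Its log2 fold change was -0.46 (SE 0.23, adjusted p = 0.143, edgeR), and without mouse 2 it was -0.85 (adjusted p = 0.00964, edgeR). With rIL-13, it had 1568, 2542 and 1185 in microglia and 2833, 2509 and 3059.7 in macrophages (log2 fold change -0.70, SE 0.28, adjusted p = 0.112, edgeR), and without mouse 6 it was -1.14 (adjusted p = 0.0161, edgeR). The remaining members were between -0.42 (Hspa1a, SE 0.24) and 0.08 (Hspd1, SE 0.14) on the log2 scale with PBS, between -0.55 (Hspa1a, SE 0.44) and 0.11 (Hsp90aa1, SE 0.23) with rIL-13, and between -0.11 (Hspa8, SE 0.17) and 1.10 (Hspa1b, SE 0.79) with rIL-4, none of them called. Mice 2 and 6 gave the microglia libraries with the largest fibroblast and pericyte sums of their groups (4377 and 9725 CPM) and the smallest sums of microglia markers (7697 and 3454 CPM). Immediate early genes, the first genes that cells transcribe after a stimulus, were also lower in microglia. Of 17 such genes, 15, 14 and 15 were lower in microglia with PBS, rIL-13 and rIL-4, respectively, and 0 were higher. Their summed level was between 826 and 1821 CPM in microglia and between 2436 and 5677 in macrophages, and neutrophil markers summed to between 16.9 and 199 CPM in microglia and between 164 and 2534 in macrophages. The part of any of these lists in the results for Hsph1 and Bag3 was not tested.

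Hspb1 was compared with the other small heat shock proteins. The 8 listed genes together had between 78.3 and 121 CPM in PBS microglia and between 9.16 and 10.2 CPM in PBS macrophages. With rIL-13 they had between 81.8 and 104 against between 6.86 and 9.25 CPM, and with rIL-4 between 32.9 and 54.3 against between 4.34 and 6.19 CPM. Calls over this list are not counted between the cell types, since some of its genes passed the filter only through microglia. Cryab, which encodes a small heat shock protein abundant in lens, muscle and glia, had between 721 and 1315 normalized counts in PBS microglia (median 821) and between 52.9 and 103 in PBS macrophages (median 80.8) (log2 fold change 3.53, adjusted p = 8.69e-05, edgeR). Hspb8, which works with Bag3 in autophagy, had between 1061 and 1979 in PBS microglia and between 5.46 and 9.41 in PBS macrophages. In rIL-4 microglia, Cryab had between 169 and 289 (median 263), below all PBS libraries, and was lower than with PBS (log2 fold change -1.95, SE 0.36, adjusted p = 0.0282, edgeR).

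Markers of other cell types were also higher in microglia. The 10 fibroblast and pericyte markers summed to between 225 and 9725 CPM in microglia and to at most 8.47 CPM in macrophages, where some of them passed the filter on low counts only through the microglia libraries, so that their tests are not counted. All 8 endothelial markers were higher in microglia under each treatment. Col3a1 and Dcn, the most abundant of the first list, had means of 828 and 762 CPM in PBS microglia and 1.17 and 0.540 CPM in PBS macrophages. The 10 fibroblast and pericyte markers summed to 2860.0, 4377 and 3149.6 CPM in PBS microglia, 2092, 9725 and 1587 in rIL-13 microglia, and 1583, 1099.8 and 225 in rIL-4 microglia, in the same order of mice as above. Endothelial markers summed to 2372, 1761 and 1113 CPM with PBS, to 2321, 2013 and 3976 with rIL-13, and to 2163, 3561 and 2347 with rIL-4 in these libraries. Hspb1 itself had 80.3, 83.5 and 36.4 CPM with PBS, 41.6, 83.2 and 48.2 with rIL-13, and 26.5, 26.5 and 20.1 with rIL-4. The most Hspb1 and the largest fibroblast and pericyte sum were in the same mouse with PBS (mouse 2) and with rIL-13 (mouse 6). With rIL-4, that sum was largest in mouse 8, while mice 8 and 9 both had 26.5 CPM of Hspb1. The endothelial sum was largest in mouse 1 with PBS, mouse 7 with rIL-13 and mouse 9 with rIL-4. The part of such cells in the level of Hspb1 was not tested, and in bulk libraries fewer cells of a type and less RNA per cell cannot be told apart.

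**Figure D4:**
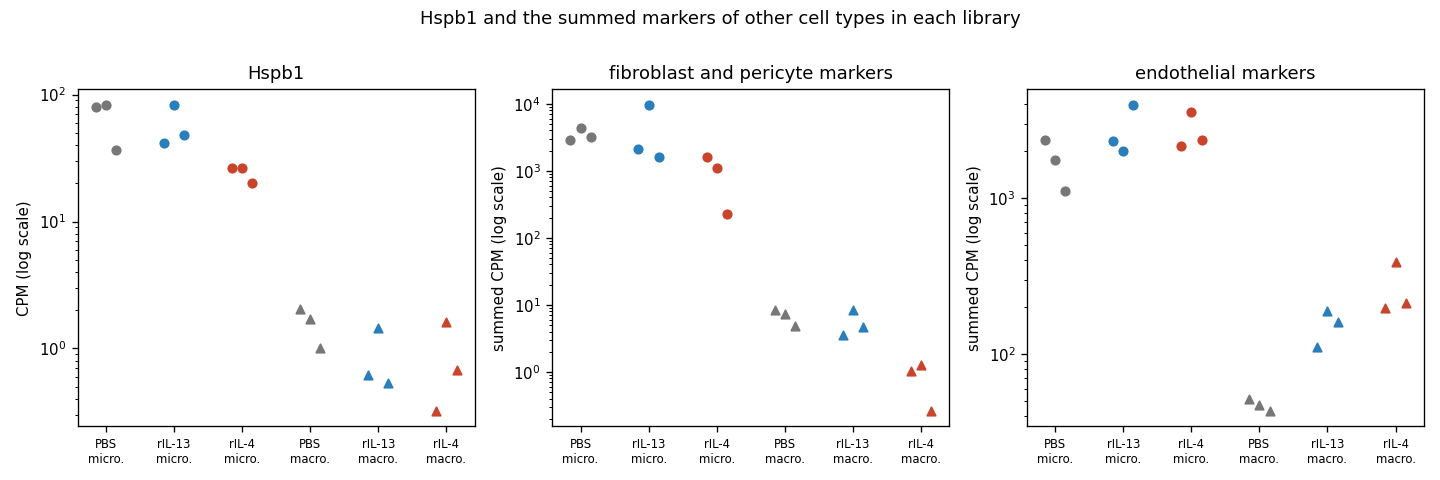
CPM of Hspb1 and summed CPM of fibroblast and pericyte markers and of endothelial markers (log scales) in each of the 18 libraries; circles are microglia and triangles are macrophages. Every microglia library lies above every macrophage library in all 3 panels, and rIL-4 microglia lie lowest among microglia for Hspb1 and for fibroblast and pericyte markers.

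Other chaperone families were described from lists of their genes. The clearest contrast was with chaperones of the endoplasmic reticulum (ER), which fold secreted and membrane proteins. In rIL-4 macrophages, 13 of 15 ER chaperone genes rose against PBS and 0 fell, with a median log2 fold change of 0.83, where 6.77% of all genes were called higher and their median change was 0.02. Of the 9 members tested, 1 was called higher, and their median was 0.12. With rIL-13, 7 of 15 ER chaperones rose in macrophages and 0 fell (median 0.59), where 2.53% of all genes were called higher. Pdia4, an ER protein disulfide isomerase, had a range of 15017 to 15968 normalized counts in PBS macrophages, of 51901 to 63787 with rIL-13 and of 70297 to 98893 with rIL-4. It rose by a log2 fold change of 2.45 with rIL-4 (SE 0.17, adjusted p = 2.6e-05, edgeR) and 1.88 with rIL-13 (SE 0.17, adjusted p = 0.000254, edgeR). The next called genes with rIL-4 were Creld2 (log2 fold change 1.45) and Sdf2l1 (1.10), which both encode ER luminal proteins.

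In microglia, 1 of 15 ER chaperones, Pdia4, rose with rIL-4 (log2 fold change 0.96, SE 0.18, adjusted p = 0.0282, edgeR), 0 fell, and the median was -0.0013. With rIL-13, 0 of 15 were called by edgeR, 0 had an unadjusted p under 0.05, and DESeq2 called 0. The difference between the cell types in the rIL-4 response was itself called for 5 of the 15, each with a smaller response in microglia (0.502% of all genes were called in that direction). Between the cell types, 11, 14 and 14 of 15 ER chaperones were lower in microglia with PBS, rIL-13 and rIL-4, where 16.3%, 9.46% and 9.97% of all genes were called lower. Serpinh1, the chaperone of collagen, was higher in microglia under each treatment, with between 3029 and 6156 normalized counts in PBS microglia and between 14.7 and 22.3 in PBS macrophages. Fibroblast and pericyte markers summed to between 225 and 9725 CPM in microglia and to at most 8.47 CPM in macrophages. The part of such cells in the level of Serpinh1 was not tested. Targets of the unfolded protein response and of ATF4 included 4 of 10 genes that rose in rIL-4 macrophages, among them Herpud1 (log2 fold change 1.3) and Xbp1 (0.76), and 0 fell.

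Cytosolic and mitochondrial families had fewer calls than ER chaperones in rIL-4 macrophages, where 6.77% of all genes were called higher. Genes called higher were 1 of 8 of the remaining HSP70, HSP110 and HSP90 family (Hspa14, log2 fold change 0.50), 2 of 13 J-domain genes (Dnaja1, 0.53, and Dnajc13, 0.77), 2 of 20 other HSP70 and HSP90 co-chaperones (Stub1, 0.52, and Fkbp4, 0.44) and 1 of 8 subunits of the TRiC chaperonin (Cct8, 0.57). Of 10 mitochondrial chaperone and protease genes, 2 were called higher, Clpp (0.58) and Hspa9 (0.48), which encodes the mitochondrial HSP70. None of these lists had a gene called lower. Of 4 heat shock transcription factor genes tested, 1 was called, Hsf4 (1.66), with between 48.2 and 87.5 normalized counts with rIL-4 and between 15.3 and 36.1 with PBS. Together, edgeR called 9 of the 63 genes tested in these 6 lists higher and 0 lower. An unadjusted p under 0.05 was found for 16 of them, and DESeq2 called 12 (2660 of all 13592 genes tested). In microglia with rIL-4 against PBS, edgeR called 0 of the 65 genes of these 6 lists (2.22% of all genes). Of these 65, 10 had an unadjusted p under 0.05, and DESeq2 called 3 (7.91% of all genes). With rIL-13 against PBS, edgeR called 0 (0.366% of all genes), 4 had an unadjusted p under 0.05, and DESeq2 called 0 (2.19% of all genes).

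**Figure D5:**
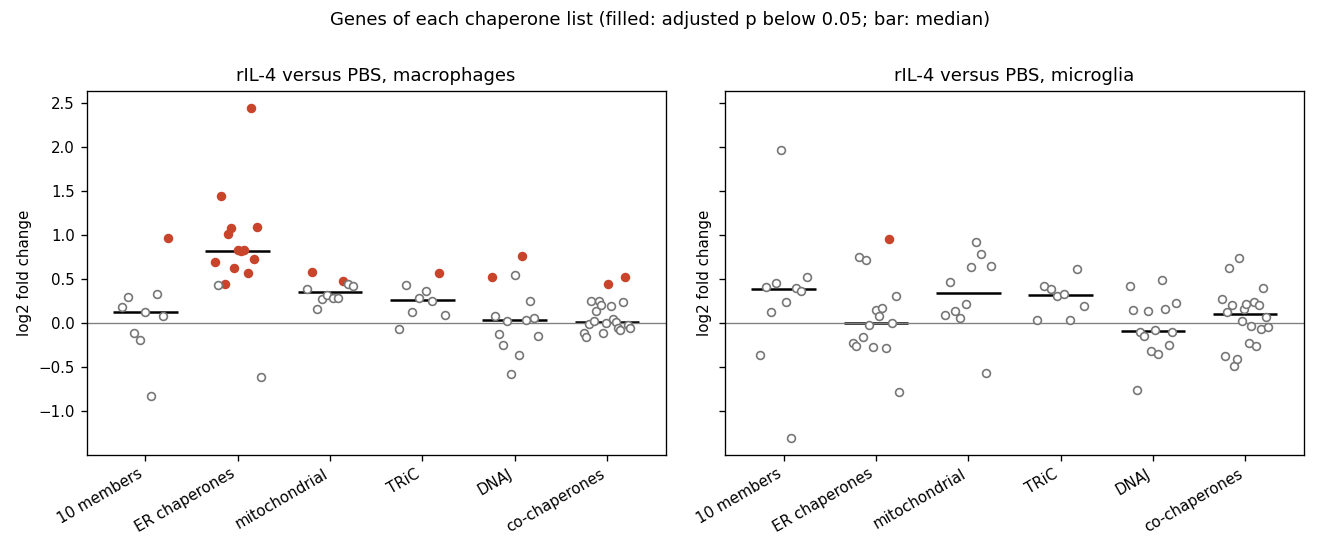
Log2 fold change of rIL-4 against PBS (vertical axis) for the 10 genes described here and for the genes of 5 other chaperone lists, in macrophages (left) and microglia (right); filled points have an adjusted p below 0.05 by edgeR and bars are medians. In macrophages 13 of 15 ER chaperones are filled, against 1 of 9 members and at most 2 genes of any other list shown.

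Members also varied between mice of a group. Hsp90aa1 in microglia had 16039, 21151 and 17594 normalized counts with PBS, 13742, 22062 and 15746 with rIL-13, and 16013, 24035 and 18098 with rIL-4. Macrophage values were 15826, 19596 and 18216 with PBS, 12969, 19181 and 14507 with rIL-13, and 13376, 21079 and 13670.2 with rIL-4. Mouse 2, mouse 6 and mouse 9 were thus highest in both of their cell types, and the groups overlapped in every comparison. Hspe1 was also highest in both cell types of these 3 mice. The mouse with the highest level was the same in both cell types for 4 of 10 members with PBS (38% of all genes), 4 of 10 with rIL-13 (37.8%) and 7 of 10 with rIL-4 (39.5%).

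Pairs of members were compared over the 18 libraries after each group's mean was subtracted, on log2(CPM + 1), as a description of values that share library and depth. The highest Pearson correlations were between Hspa1a and Dnajb1 (0.88) and between Hsp90aa1 and Hspd1 (0.88), followed by Hsph1 and Hspd1 (0.84) and Dnajb1 and Bag3 (0.79). Hspd1 and Hspe1, whose starts adjoin, had 0.64, and Hspa1a and Hsph1 had 0.24. Outside the members, the genes most like the sum of Hspa1a and Hspa1b were Sltm (0.90), Ctps (0.85), Uaca (0.85), BC055324 (0.83) and Acap1 (0.83), out of 16499 genes. The genes most like the mean of the 10 members were Xbp1 (0.96), Lmna (0.95), Eif2s2 (0.94), Cnbp (0.94) and Nolc1 (0.94).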

How the data were processed

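Per the labels and the study's methods, the authors aligned SMART-seq2 reads with STAR 2.5.3a to GRCm38 and deposited RSEM 1.3.0 expected counts per gene, whole numbers that were not normalized. Reads that fit more than 1 gene are shared out by RSEM, and without molecular identifiers intervals and limits cover counting error only. The members and all gene lists were chosen with earlier results of these data known. Counts were tested with edgeR 4.0.16 (quasi-likelihood, TMM, filterByExpr, Benjamini-Hochberg over all genes tested, threshold 0.05) on the 9 libraries of a cell type, the 6 libraries of a treatment, or all 18 for differences in response. SE was derived from the F statistic. Overlap of groups was counted on TMM-scaled counts of the same fit. DESeq2 1.42.0 was an alternative and gave the size factors. Exon lengths came from GENCODE M21. All 10 members entered every comparison, given singly or as a range, and of other lists up to 3 called genes of lowest adjusted p were eligible to be named. Both cell types came from the same mouse, as the labels state. Deviations from group means correlated between the cell types of a mouse by 0.0473 to 0.206, above 0.1 in 6 of 9 mice.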

Additional observations from a re-analysis of the deposited data

Results flagged for a closer look

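No member differed between the cell types in its response by edgeR's test of that difference, which did not include the mouse as a block. Of the other chaperone and stress genes named by the same rule, the response to rIL-4 against PBS was smaller in microglia than in macrophages for Pdia4 (log2 difference -1.51, SE 0.24, adjusted p = 0.00727, edgeR), Hsp90b1 (-0.92, SE 0.16, adjusted p = 0.0146), Calr (-0.94, SE 0.19, adjusted p = 0.0282) and Herpud1 (-1.28, SE 0.28, adjusted p = 0.0384). The response of Pdia4 to rIL-13 was also smaller in microglia (-1.51, SE 0.24, adjusted p = 0.0402, edgeR). Hspb3, a small heat shock protein gene, had 0 counts in all 3 rIL-4 macrophage libraries and between 16.9 and 26.2 normalized counts in PBS macrophages, while it had between 59.7 and 106 in rIL-4 microglia and between 91.4 and 319 in PBS microglia (adjusted p = 0.0231 for the difference in response, edgeR).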

How the results depend on the processing

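Of 1478 values of single members under the alternatives, 1413 kept their direction and their side of the threshold, 8 passed it only under the alternative, 7 no longer passed it, and 50 changed sign, none of them in a called result. The count of members called was 1 by DESeq2's Wald test instead of 0 by edgeR for rIL-4 against PBS and rIL-4 against rIL-13 in microglia and for rIL-4 against rIL-13 in macrophages, where it was also 1 without the filter on low counts. Between the cell types with rIL-13 it was 2 instead of 1 with all 18 libraries in 1 model. Leaving out 1 replicate gave between 0 and 1 members called for rIL-13 against PBS in macrophages (1 without mouse 6) and between 1 and 2 between the cell types with PBS (2 without mouse 2), rIL-4 (1 without mouse 8 or 10) and rIL-13 (2 without mouse 6). With the mouse as a replicate block, 1, 2 and 1 members were called between the cell types with PBS, rIL-4 and rIL-13 (40.2%, 20.6% and 25.4% of all genes), and Bag3 with rIL-4 was the only member call that the block changed. The cause of these changes was not tested.

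Some signs changed without a call. Hspd1 for rIL-13 against PBS in microglia was 0.000867 by DESeq2 and 0.000877 with its size factors. With 10 counts required of each library, differences between the cell types were 0.0421 for Hsp90aa1 and 0.0301 for Hspe1 with PBS, 0.0478 for Dnajb1 with rIL-4 and 0.0407 for Hspd1 with rIL-13, and Hsp90aa1 with PBS was 0.000953 with all 18 libraries in 1 model. Log2 ranges without 1 replicate that crossed 0 were, for rIL-13 against PBS in microglia, Hsp90aa1 -0.28 to 0.040, Hspa1b -2.41 to 0.16, Hspd1 -0.16 to 0.13, Hspe1 -0.063 to 0.33 and Hsph1 -0.40 to 0.24, and in macrophages Bag3 -0.10 to 0.12. For rIL-4 against PBS they were Hsp90aa1 -0.058 to 0.24 in microglia, and Hsp90aa1 -0.37 to 0.025, Hspa1a -0.32 to 0.013, Hspa8 -0.0097 to 0.23 and Hspe1 -0.085 to 0.33 in macrophages. For rIL-4 against rIL-13 in macrophages they were Hsp90aa1 -0.18 to 0.24 and Hspb1 -0.85 to 0.52. Between the cell types they were Hspd1 -0.089 to 0.15 and Hspe1 -0.26 to 0.067 with PBS, Dnajb1 -0.13 to 0.044 with rIL-4, and Dnajb1 -0.22 to 0.057, Hspa1a -0.89 to 0.12 and Hspd1 -0.16 to 0.029 with rIL-13. For the difference in response they were Hspb1 -0.93 to 0.29 and Hspd1 -0.055 to 0.23 with rIL-4, and Bag3 -0.21 to 0.023, Dnajb1 -0.065 to 0.22, Hspa1a -0.52 to 0.51, Hspa1b -1.48 to 1.24 and Hsph1 -0.71 to 0.052 with rIL-13. Depth limited Hspa1b, with between 0 and 43 counts per library, and Hspb1 in macrophages, with between 14 and 76.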
